A study of Mus musculus with 6 samples.

Results

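The 10 genes described here encode the machinery that displays antigens to T cells: the class I heavy chains H2-K1 and H2-D1, their light chain B2m, the peptide transporter subunits Tap1 and Tap2, the immunoproteasome subunit Psmb8, the class II chains H2-Aa and H2-Ab1, the class II invariant chain Cd74 and the lipid-presenting molecule Cd1d1. All probe sets whose platform annotation gives 1 of these symbols and no other were taken as members, which were 32 of the 45101 probe sets on the array. Of these, 26 were bright enough to be tested, among 27319 probe sets in all, and each of the 10 genes kept at least 1. The other 6 member probe sets, of H2-D1, Tap1, Psmb8 and H2-Aa, lay below the 40th percentile of their own array on too many arrays and are given by their values only.

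Expression was measured with Affymetrix arrays in whole hearts of 8-week-old mice, 1 array per mouse. The 3 DNMTs-Tg mice (replicates 1, 5 and 6) came from FVB-Tg(Ddx4-cre)1Dcas/J mothers and fathers carrying a flox construct, and express DNMT3A2 and DNMT3L in many somatic tissues for life. DNMT3A2 is an isoform of DNMT3A, an enzyme that methylates DNA de novo, and DNMT3L is its partner without catalytic activity. The 3 wild-type mice (replicates 1, 4 and 6) are the group they are set against. The labels do not state their strain, that of the fathers or the MHC haplotypes, which decide how well class I and class II probes match the RNA. Array values below are log2 signals as deposited, unless given relative to the wild-type mean. They are listed in the order DNMTs-Tg 1, 5 and 6, then wild-type 1, 4 and 6.

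The labels were first set against the RNA. Dnmt3l read 12.30, 12.38 and 12.19 on the DNMTs-Tg arrays and 5.28, 5.48 and 5.17 on the wild-type arrays. The brightest Dnmt3a probe set read 9.60, 9.95 and 9.50 on the DNMTs-Tg arrays and 8.50, 8.37 and 9.12 on the wild-type arrays. On all other Dnmt3a probe sets the groups overlapped and wild-type 6 was the highest array. Dnmt3a thus did not set the genotypes apart as plainly as Dnmt3l, and which probe sets read the DNMT3A2 isoform was not tested. The labels call 5 mice female and wild-type 6 male, but the Y-linked gene Eif2s3y read 9.41 to 9.52 on 5 arrays and 3.32 on wild-type 4 alone, while Xist, the RNA of the inactive X chromosome, was bright on wild-type 4 and read 4.52 to 4.96 elsewhere. The RNA thus goes against the sex label of the 3 DNMTs-Tg mice and wild-type 1, and wild-type 4 was the only array with RNA of female type. DNMTs-Tg 1 stood apart from the wild-type arrays, correlating with them at 0.943 to 0.948 over all tested probe sets, whereas wild-type arrays correlated with each other at 0.988 to 0.992. The difference of Gapdh control probe sets at the 3′ and 5′ ends, a sign of RNA quality, was 0.75, 0.53 and 0.72 on the DNMTs-Tg arrays and 0.50, 0.40 and 0.40 on the wild-type arrays, and that of Actb 1.05, 0.91 and 1.41 on the DNMTs-Tg arrays and 1.25, 1.09 and 1.12 on the wild-type arrays. The members were therefore also fitted without wild-type 4 or DNMTs-Tg 1, and the lists are given without them only as counts of calls.

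MHC class I molecules are heavy chains bound to beta-2 microglobulin that carry peptides from the cell's own proteins to CD8 T cells. Peptides are cut by the proteasome, whose immunoproteasome form holds Psmb8, and are pumped into the endoplasmic reticulum by the Tap1-Tap2 pair. Class II molecules, pairs of an alpha and a beta chain that mature on the invariant chain, show peptides from taken-up material to CD4 T cells and are made mainly by macrophages, dendritic cells and B cells. CD1d is built like a class I molecule but holds lipids, which it shows to natural killer T cells. In a healthy heart class I is carried by many cell types, and class II mainly by resident immune cells. In whole-heart RNA, fewer cells of a type and less RNA per cell cannot be told apart.

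Class I genes carry a compact upstream regulatory region, and 4 upstream sequences are shown, those of H2-K1, H2-D1, B2m and H2-Aa. As described below, wild-type 4 was the highest of the wild-type arrays for every tested probe set of all members other than Cd1d1. That pattern therefore does not set these 4 genes apart, and the part of the motifs in it was not tested. The RefSeq promoter table (GRCm38.p6) held an entry for 6 of the 10 members that could be used, and Cd1d1 was not among them. Each line gives the 250 bases before the start of the gene on its own strand, 5′ to 3′. The regions are chr17:34000348-34000597 on the minus strand for H2-K1, chr17:35262844-35263093 on the plus strand for H2-D1, chr2:122147437-122147686 on the plus strand for B2m and chr17:34287824-34288073 on the minus strand for H2-Aa. Capitals mark 3 motifs searched on both strands: CCAAT, the CCAAT box read by NF-Y (printed as ATTGG where it lies on the opposite strand), GGGANTCCC, a form of the NF-kappaB site, and TTTCNNTTT, a core of interferon response elements.
H2-K1: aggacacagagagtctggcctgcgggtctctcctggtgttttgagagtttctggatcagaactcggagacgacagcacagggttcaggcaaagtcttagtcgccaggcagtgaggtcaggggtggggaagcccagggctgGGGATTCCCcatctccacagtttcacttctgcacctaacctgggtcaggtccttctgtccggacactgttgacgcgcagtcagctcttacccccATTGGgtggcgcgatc
H2-D1: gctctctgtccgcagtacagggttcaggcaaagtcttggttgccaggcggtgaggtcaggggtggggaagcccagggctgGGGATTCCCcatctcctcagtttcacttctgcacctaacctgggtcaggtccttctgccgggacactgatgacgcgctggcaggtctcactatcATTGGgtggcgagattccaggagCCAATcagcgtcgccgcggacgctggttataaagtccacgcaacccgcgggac
B2m: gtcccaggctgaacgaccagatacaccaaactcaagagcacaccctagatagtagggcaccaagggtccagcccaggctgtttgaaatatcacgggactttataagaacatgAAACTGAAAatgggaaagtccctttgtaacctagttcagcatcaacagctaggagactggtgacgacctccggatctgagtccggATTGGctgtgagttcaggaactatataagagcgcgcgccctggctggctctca
H2-Aa: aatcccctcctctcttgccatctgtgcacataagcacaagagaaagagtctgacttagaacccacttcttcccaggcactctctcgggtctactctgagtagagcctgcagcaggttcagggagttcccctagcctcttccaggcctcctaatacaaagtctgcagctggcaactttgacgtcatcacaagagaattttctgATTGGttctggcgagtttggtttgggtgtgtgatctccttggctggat
The NF-kappaB form stands once in H2-K1 and once in H2-D1, inside a run of 47 bases that both windows share, and in 0.636% of the 32851 windows of the table. The interferon core stands once in B2m, in 9.37% of all windows. A CCAAT box stands in all 4 sequences and in 33.8% of all windows. The CpG dinucleotide, the usual target of DNA methyltransferases, occurs 9 times upstream of H2-K1, 14 times upstream of H2-D1, 8 times upstream of B2m and 3 times upstream of H2-Aa, beside a median of 6 over all windows. Tap1 has a CCAAT box and 14 CpGs in its window, and Psmb8 none of the 3 motifs and 10 CpGs. These are matches of letters only. Other forms of these sites were not searched, so a window without a match may still hold such a site.

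Cd1d1 was the 1 member called as different between the genotypes. Both of its probe sets fell in DNMTs-Tg hearts, by 1.34 and 1.30 on the log2 scale, and the 24 tested probe sets of the other 9 genes did not pass the threshold (limma, adjusted p under 0.05). The count for the members was therefore 2 lower and 0 higher of 26, where 2.36% of all tested probe sets were called lower and 1.77% higher, 4.13% in all. Before adjustment, 2 of the 26 members had a p under 0.05, both of Cd1d1, against 24.2% of all probe sets. The median difference over the members was 0.08, and over all tested probe sets 0.01.

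**Figure D1:**
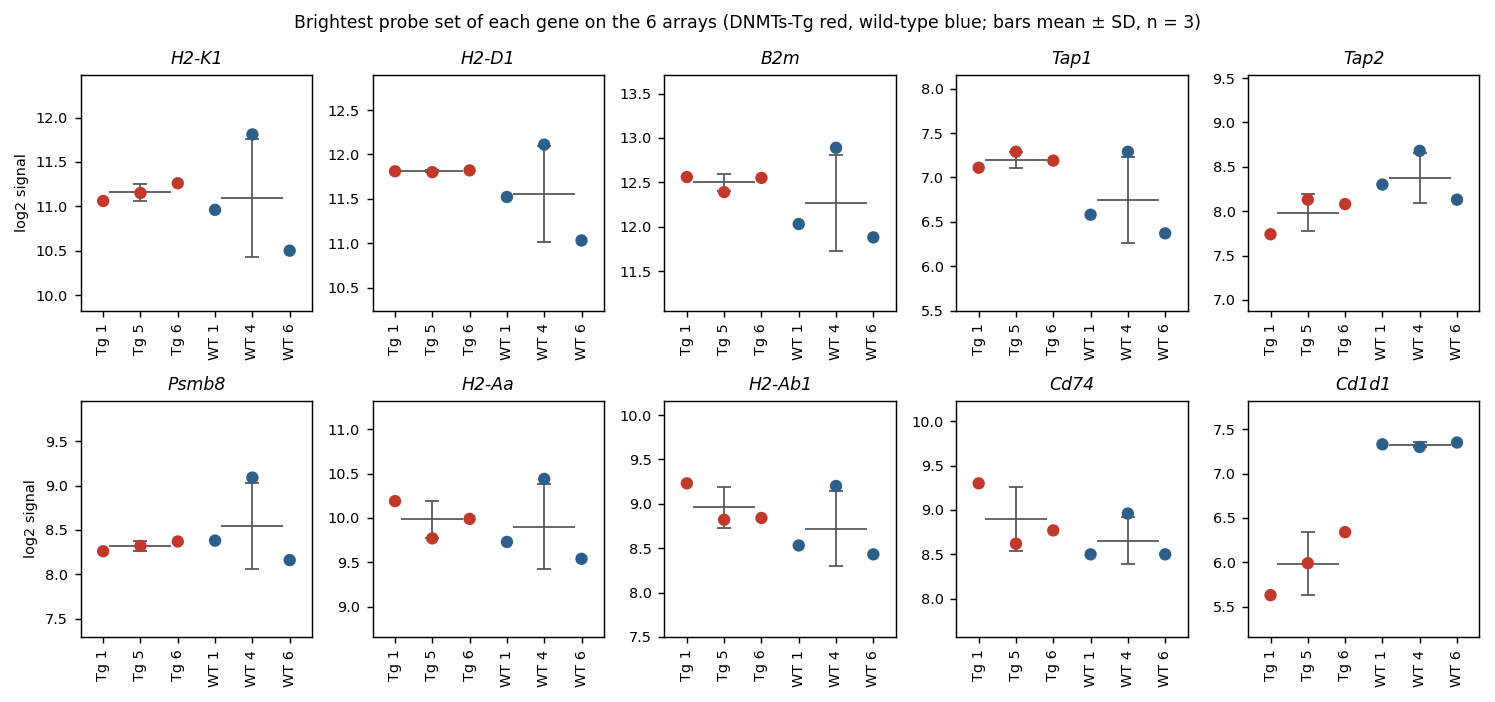
Log2 signal of the brightest probe set of each of the 10 genes (y axes) on the 6 arrays (x axes), with DNMTs-Tg arrays in red at the left of each panel, wild-type arrays in blue at the right, and bars for the mean ± SD of 3 arrays. Only in the Cd1d1 panel do the groups lie apart (5.63 to 6.34 in DNMTs-Tg, 7.30 to 7.35 in wild-type); in the H2-K1, H2-D1 and B2m panels wild-type 4 is the highest array and wild-type 6 the lowest.

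Cd1d1 on chromosome 3, the main CD1d gene of mice, was dim to moderate in the heart. Probe set 1449131_s_at read 5.63, 5.99 and 6.34 in DNMTs-Tg hearts and 7.33, 7.30 and 7.35 in wild-type hearts. The 3 wild-type values lay within 0.04 of each other, the 3 DNMTs-Tg values spread over 0.71, and the groups did not overlap. Its means were 5.99 ± 0.35 in DNMTs-Tg and 7.33 ± 0.02 in wild-type hearts (SD, n = 3 each), a difference of -1.34 ± 0.18 (SE; 95% interval -1.76 to -0.91), or 2.52-fold lower (limma, adjusted p = 0.0138).

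The other Cd1d1 probe set, 1449130_at, whose suffix marks no sharing with other transcripts, gave nearly the same difference. It read 5.14, 4.97 and 5.36 in DNMTs-Tg hearts and 6.39, 6.25 and 6.72 in wild-type hearts. Every DNMTs-Tg value lay below every wild-type value, at 5.15 ± 0.20 and 6.45 ± 0.24 (SD, n = 3 each). The difference was -1.30 ± 0.17 (SE; 95% interval -1.69 to -0.91), 2.46-fold lower (limma, adjusted p = 0.0105). Groups that do not overlap, lower in DNMTs-Tg, were seen in 16.4% of all tested probe sets.

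With single arrays left out, the Cd1d1 differences kept their direction and ran from -1.51 to -1.16 for 1449131_s_at and from -1.40 to -1.17 for 1449130_at. Their calls were less firm: in limma, 1449131_s_at passed in 2 of the 6 fits and 1449130_at in 4 of 6. The adjusted p-values of 1449131_s_at were 0.0714 without DNMTs-Tg 5, and 0.0754, 0.0661 and 0.0639 without wild-type 1, 4 and 6; those of 1449130_at were 0.0603 without DNMTs-Tg 5 and 0.0583 without wild-type 1. Without DNMTs-Tg 1 and wild-type 4 together, a choice made after the data were seen, they were 0.0234 and 0.0233. The Gapdh end difference given above also lay apart between the genotypes, and its part in the Cd1d1 result was not tested. The strain of the wild-type mice and of the fathers is not stated, and the part of strain was not tested either.

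The genes beside Cd1d1 gave a point of comparison. Its paralogue Cd1d2 lies next to it and is annotated as a transcribed pseudogene in GRCm38.p6. Cd1d2 read 4.99, 5.01 and 4.94 in DNMTs-Tg hearts and 5.12, 5.18 and 5.25 in wild-type hearts, a difference of -0.20 ± 0.10 (SE; limma, adjusted p = 0.266). These values are close to the percentile used as the filter, so a change could hardly be seen there. Of the protein-coding genes up to 4 places away on either side, 1 was called: Lrba, 3 places before Cd1d1 and the gene of a protein in vesicle traffic, read 7.91, 8.16 and 8.38 in DNMTs-Tg hearts and 9.16, 9.0 and 9.04 in wild-type hearts (-0.92 ± 0.14, SE; limma, adjusted p = 0.0207). Places were counted in the order of gene starts, in which Mab21l2 and Dclk2 come between Lrba and Cd1d1. Mab21l2 differed by -0.15 (limma, adjusted p = 0.534) and Dclk2, a microtubule-associated kinase, by -0.32 (adjusted p = 0.196). Kirrel, the next gene on the other side, differed by 0.37 (limma, adjusted p = 0.179). Cd5l and Fcrl1, farther on that side, had no probe set bright enough to be tested.

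**Figure D2:**
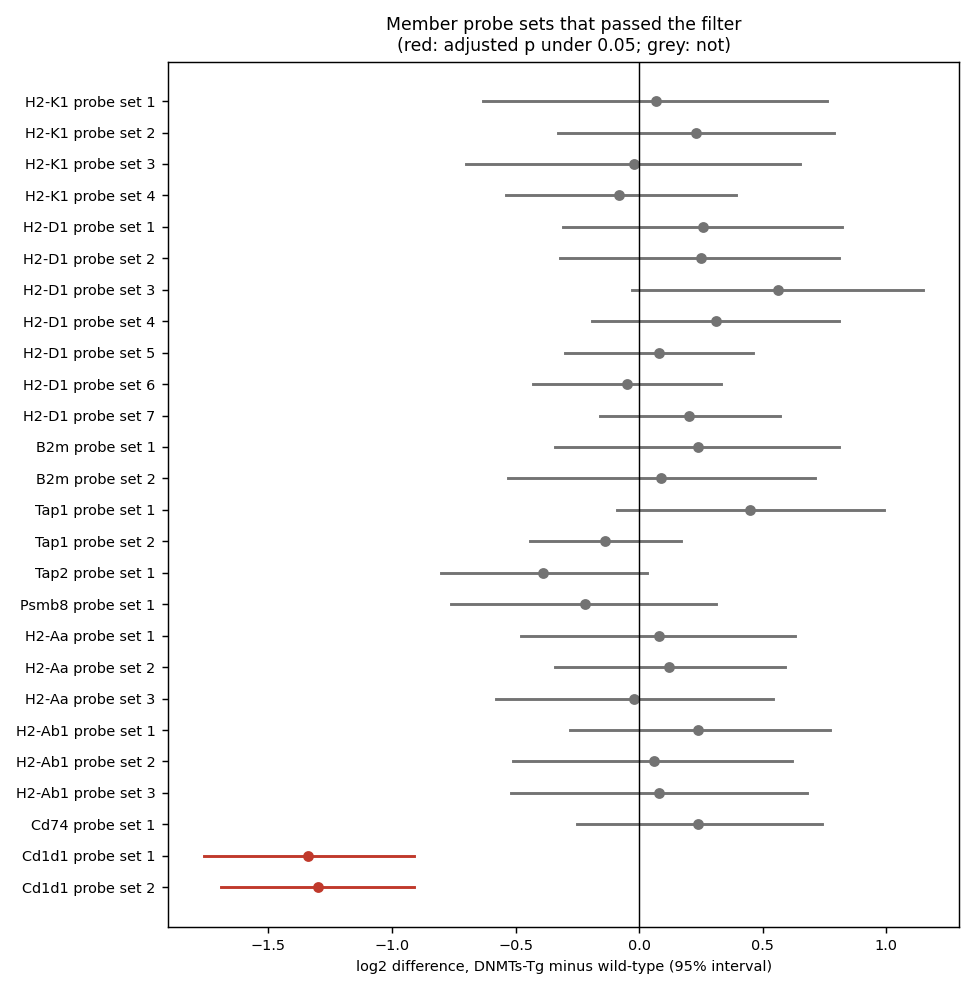
Log2 difference, DNMTs-Tg minus wild-type (x axis), of the 26 tested member probe sets, 1 per row, with 95% intervals from limma (n = 3 arrays per group); red marks an adjusted p under 0.05 and grey the rest. The 2 Cd1d1 intervals end at -0.91, and the other 24 intervals all cover 0.

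The class I heavy chains were among the bright genes of the heart. The brightest H2-D1 probe set, 1451784_x_at, read 11.81, 11.80 and 11.82 in DNMTs-Tg hearts and 11.52, 12.11 and 11.03 in wild-type hearts. The DNMTs-Tg values were nearly equal, with a range of 0.02, and lay inside the wild-type range of 1.08, which is 2.12-fold. Means were 11.81 ± 0.01 in DNMTs-Tg and 11.55 ± 0.54 in wild-type hearts (SD, n = 3 each), and the difference of 0.26 ± 0.24 (SE; 95% interval -0.31 to 0.82) did not pass the test (limma, adjusted p = 0.553). Over the 7 tested H2-D1 probe sets the differences ran from -0.05 to 0.56, with adjusted p-values of 0.228 to 0.882. The highest, of 1451683_x_at, came from 9.63, 9.33 and 9.27 in DNMTs-Tg hearts and 8.81, 9.38 and 8.35 in wild-type hearts, where wild-type 4 lay among the DNMTs-Tg values. Probe set 1426324_at, whose suffix marks no shared probes, read 8.01, 7.95 and 7.89 in DNMTs-Tg hearts and 7.58, 8.11 and 7.23 in wild-type hearts (0.31 ± 0.21, SE; limma, adjusted p = 0.408). It put the arrays in the same order of extremes, wild-type 4 at the top and wild-type 6 at the bottom.

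H2-K1, the other classical class I chain measured here, behaved in the same way. Probe set 1425336_x_at read 11.06, 11.15 and 11.26 in DNMTs-Tg hearts and 10.96, 11.81 and 10.50 in wild-type hearts. The wild-type range of 1.32, or 2.49-fold, again enclosed all 3 DNMTs-Tg values. Its difference was 0.07 ± 0.30 (SE; 95% interval -0.63 to 0.76; limma, adjusted p = 0.913). The other 3 H2-K1 probe sets differed by 0.23, -0.02 and -0.08 (adjusted p = 0.589, 0.969 and 0.844). All 4 H2-K1 probe sets and most of those of H2-D1 carry the suffix for probes shared with other transcripts, as do 20 of the 32 member probe sets, so a value may hold signal of related class I genes.

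Probe sets that the annotation gives to several class I genes were kept apart from the members. One listed for both H2-K1 and H2-D1 read 8.44, 8.51 and 8.63 in DNMTs-Tg hearts and 8.42, 9.24 and 8.02 in wild-type hearts (-0.03; limma, adjusted p = 0.960). One listed for H2-Q5 and H2-K1 read 7.17, 7.86 and 7.70 in DNMTs-Tg hearts and 7.75, 8.29 and 7.38 in wild-type hearts (-0.23; limma, adjusted p = 0.641). Both were highest on wild-type 4. The third, listed for Gm38417, H2-Q2 and H2-D1, was too dim to be tested, at 4.15, 3.97 and 3.96 in DNMTs-Tg hearts and 4.11, 4.20 and 3.98 in wild-type hearts. The widest wild-type range among the shared class I probe sets, singled out after its values were seen, was that of the Qa-2 genes H2-Q9 and H2-Q7, with 6.59, 7.27 and 7.03 in DNMTs-Tg hearts and 6.44, 7.89 and 4.88 in wild-type hearts. That wild-type range of 3.02 is 8.09-fold, and the difference of 0.56 had an adjusted p of 0.642 (limma).

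B2m, the light chain of all class I molecules and of CD1d, was the brightest member. Probe set 1449289_a_at read 12.56, 12.39 and 12.55 in DNMTs-Tg hearts and 12.03, 12.89 and 11.88 in wild-type hearts. The wild-type values spread over 1.01 and enclosed the DNMTs-Tg values, and the difference of 0.24 ± 0.24 (SE; 95% interval -0.34 to 0.81) did not pass (limma, adjusted p = 0.590). The other B2m probe set had the same extremes, with 12.44, 12.30 and 12.33 in DNMTs-Tg hearts and 12.05, 12.94 and 11.82 in wild-type hearts (0.09; limma, adjusted p = 0.867).

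The genes that supply peptides were of middle brightness and did not differ in 1 direction. Tap1 read 7.11, 7.29 and 7.19 in DNMTs-Tg hearts and 6.58, 7.29 and 6.37 in wild-type hearts on probe set 1416016_at, with the wild-type 4 value equal to the highest DNMTs-Tg value. Its difference was 0.45 ± 0.23 (SE; 95% interval -0.09 to 0.99; limma, adjusted p = 0.278). Weighting arrays by their quality gave 0.56 with an adjusted p of 0.0326, in a fit that called 34.7% of all probe sets. A second, dim Tap1 probe set differed by -0.14 (limma, adjusted p = 0.550).

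Tap2, the other subunit of the transporter, had its sign the other way from Tap1 on its single probe set. It read 7.74, 8.13 and 8.08 in DNMTs-Tg hearts and 8.30, 8.68 and 8.13 in wild-type hearts, so the lowest wild-type value met the highest DNMTs-Tg value. The difference of -0.39 ± 0.18 (SE; 95% interval -0.80 to 0.03) had an adjusted p of 0.235 (limma). Psmb8, which replaces a constitutive subunit in the immunoproteasome, read 8.26, 8.32 and 8.37 in DNMTs-Tg hearts and 8.38, 9.09 and 8.16 in wild-type hearts. The wild-type range was 0.93 against 0.11 in DNMTs-Tg hearts. Its difference of -0.22 ± 0.23 (SE; 95% interval -0.76 to 0.31) did not pass (limma, adjusted p = 0.586).

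Class II genes were readily seen in the hearts, and none of their 7 tested probe sets passed. H2-Aa, the class II alpha chain, read 10.19, 9.77 and 9.99 in DNMTs-Tg hearts and 9.73, 10.44 and 9.54 in wild-type hearts (0.08 ± 0.24, SE; 95% interval -0.48 to 0.63; limma, adjusted p = 0.872). H2-Ab1, the beta chain, read 9.23, 8.82 and 8.84 in DNMTs-Tg hearts and 8.53, 9.20 and 8.43 in wild-type hearts (0.24 ± 0.22, SE; 95% interval -0.28 to 0.77; limma, adjusted p = 0.539). Both were highest or nearly so on DNMTs-Tg 1 and wild-type 4, and both groups overlapped. The other 2 tested probe sets of each gene differed by -0.02 to 0.12, with adjusted p-values of 0.738 to 0.965.

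Cd74, the invariant chain that class II molecules assemble on, was measured by 1 probe set. It read 9.30, 8.62 and 8.77 in DNMTs-Tg hearts and 8.50, 8.96 and 8.50 in wild-type hearts, so DNMTs-Tg 1 was the highest array, wild-type 4 came next, and the remaining 4 lay within 8.50 to 8.77. The difference was 0.24 ± 0.21 (SE; 95% interval -0.25 to 0.74; limma, adjusted p = 0.520). On the dim H2-Aa probe set that was not tested, all DNMTs-Tg values (4.57, 4.37 and 4.26) lay above the wild-type values (3.60, 4.18 and 3.31), and without a filter its adjusted p was 0.137 (limma). Without DNMTs-Tg 1, the Cd74 difference was 0.04.

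The intervals bound what these 6 arrays could show. Over the 24 tested probe sets of the 9 genes other than Cd1d1, the differences lay between -0.39 and 0.56 and the 95% limits between -0.80 and 1.15. Within an interval of that width a change of moderate size in either direction could not be told from none. The lowest adjusted p among them was 0.228.

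The 9 genes other than Cd1d1 had a wide spread among wild-type hearts. The SD over 3 wild-type arrays had a median of 0.47 across the 24 probe sets, beside 0.13 over the DNMTs-Tg arrays. Across all tested probe sets the order was the other way, with a median SD of 0.19 in DNMTs-Tg and 0.12 in wild-type hearts. The wild-type range exceeded the DNMTs-Tg range in 21 of the 24, where 29.4% of all probe sets did so. In 15 of the 24 the wild-type values enclosed all DNMTs-Tg values, beside 6.37% of all probe sets. These are descriptions, since the probe sets of a pathway vary together on an array and are no independent counts.

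**Figure D3:**
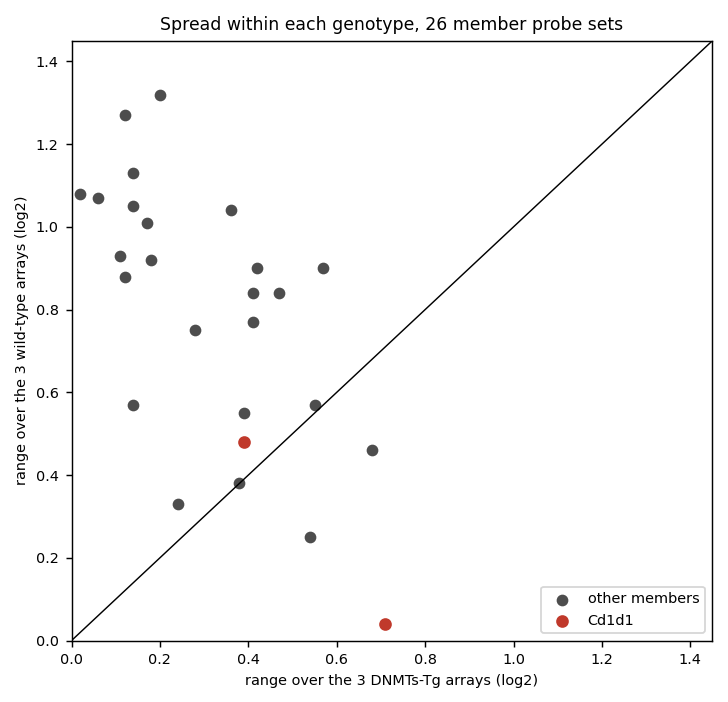
Range of the log2 signal over the 3 wild-type arrays (y axis) against the range over the 3 DNMTs-Tg arrays (x axis) for the 26 tested member probe sets, with Cd1d1 in red and the other members in grey; the line marks equal ranges. Above the line lie 22 of the 26 points, and the Cd1d1 point far below it has a wild-type range of 0.04.

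The spread had the same shape in nearly every member. Wild-type 4 was the highest of the wild-type arrays in 24 of the 24 probe sets, where 33.5% of all probe sets had it highest, and wild-type 6 was the lowest in 20, where 37.3% had it lowest. Counted over all 6 arrays, wild-type 4 was highest and wild-type 6 lowest in 14 of the 24, beside 1.55% of all probe sets. Wild-type 4 was also the array with female-type RNA, and the part of sex in this was not tested. Averaged over the 13 probe sets of H2-K1, H2-D1 and B2m and set relative to the wild-type mean, the arrays stood at 0.12, 0.17 and 0.20 in DNMTs-Tg hearts and at -0.08, 0.48 and -0.40 in wild-type hearts. The 7 class II probe sets, Cd74 included, stood at 0.38, -0.04 and 0.01 in DNMTs-Tg hearts and at -0.21, 0.48 and -0.27 in wild-type hearts. Cd1d1 did not take part: its 2 probe sets averaged -0.03, -0.12 and 0.14 on the wild-type arrays, with wild-type 4 the lowest, and -1.50, -1.41 and -1.04 on the DNMTs-Tg arrays.

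Leaving out wild-type 4 gave the highest difference of the 6 left-out fits in 23 of the 24 probe sets, and leaving out wild-type 6 gave the lowest in 18. For 14 of the 24 the sign of the difference changed with the array left out. H2-K1 on 1425336_x_at, for example, ranged from -0.23 without wild-type 6 to 0.43 without wild-type 4. None of the 24 passed in any of those fits.

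**Figure D4:**
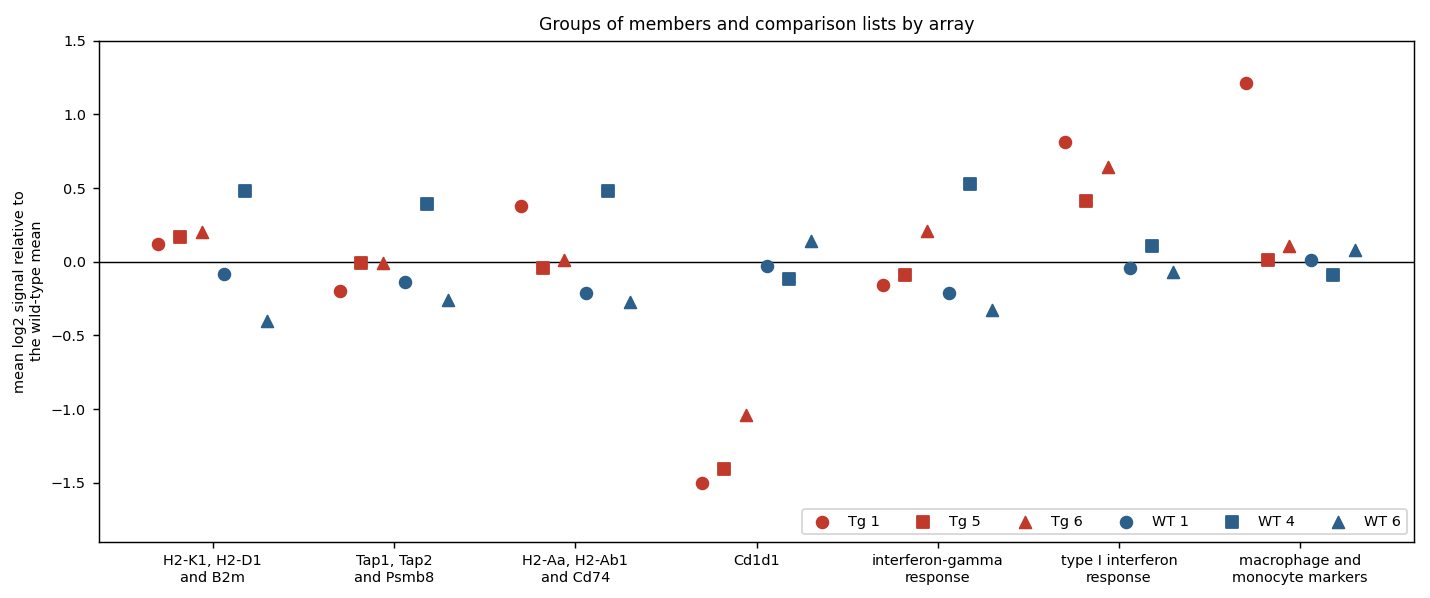
Mean log2 signal of groups of members and of 3 comparison lists, relative to the wild-type mean (y axis), with 1 point per array (DNMTs-Tg arrays in red at the left of each group, wild-type arrays in blue at the right). Wild-type 4 stands at 0.48 for class I and for class II, and at 0.53 for interferon-gamma response genes; Cd1d1 stands at -1.50 to -1.04 on the DNMTs-Tg arrays, and type I interferon genes at 0.41 to 0.81 on them.

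The genes whose pattern over the 6 arrays was most like that of Psmb8, among 13624 compared, were Igtp, an interferon-gamma-induced GTPase (Pearson r = 0.978), the apolipoprotein gene Apoc4 (r = 0.968) and Psmb9, another immunoproteasome subunit (r = 0.965). Igtp read 8.29, 8.42 and 8.74 in DNMTs-Tg hearts and 8.30, 10.47 and 8.25 in wild-type hearts. Psmb9 read 7.05, 7.28 and 7.56 in DNMTs-Tg hearts and 7.41, 8.27 and 7.09 in wild-type hearts. These genes and Psmb8 were all highest on wild-type 4, and each likeness rests on 6 arrays. For Cd74 the most like genes were Tcea1, of transcription elongation (r = 0.993), Golt1b, of Golgi transport (r = 0.992), and Tprn (r = 0.985), none of them a gene of antigen presentation. Among the members, H2-Ab1 (r = 0.917) and H2-Aa (r = 0.805) were most like Cd74 and H2-K1 (r = 0.887) and Tap2 (r = 0.826) most like Psmb8, while Cd1d1 had r = 0.366 with Psmb8 and r = -0.574 with Cd74.

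Further genes of the pathway were taken as lists. Class I peptide loading had 13 tested probe sets of 6 genes, the immunoproteasome 6 of 5 genes, class II and its processing 12 of 10 genes, the MHC transcription factors 21 of 13 genes, the remaining class I heavy chains 8 of 7 genes and the loading of lipids on CD1 10 of 5 genes. In none of these 6 lists did a probe set pass the threshold in either direction, where 4.13% of all tested probe sets did. The median differences of the lists ran from -0.10 to 0.33. With each gene represented by its brightest probe set, the smallest p in each list belonged to Calr, a chaperone of class I (0.38; limma, adjusted p = 0.0721), Psme1, a subunit of a proteasome activator (-0.32; adjusted p = 0.283), Ctsl, a protease of the class II route (0.80; adjusted p = 0.0519), the interferon regulatory factor gene Irf2 (0.32; adjusted p = 0.156), Cd1d2 (above) and Npc2, a lipid carrier of the lysosome (0.58; adjusted p = 0.133). A dimmer probe set of Irf8, a factor of macrophage and dendritic cell development, had a smaller p than Irf2, with 6.83, 6.34 and 5.99 in DNMTs-Tg hearts and 5.62, 5.58 and 5.85 in wild-type hearts (0.70; limma, adjusted p = 0.108). The constitutive proteasome subunits, 11 probe sets of 7 genes, had none called, with the smallest p for Psmb2 (-0.22; limma, adjusted p = 0.231). Ctsl lay apart between the groups, with 13.03, 12.57 and 12.30 in DNMTs-Tg hearts and 11.88, 11.77 and 11.84 in wild-type hearts.

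The regulators of the MHC genes were also read, chosen after their values were seen. Nlrc5, the transactivator of class I genes, read 5.85, 5.93 and 5.65 in DNMTs-Tg hearts and 5.09, 6.48 and 4.54 in wild-type hearts. Its wild-type range of 1.94 had the same extremes as the class I members, and its difference of 0.44 ± 0.44 (SE) did not pass (limma, adjusted p = 0.578). The list of MHC transcription factors as a whole did not share these extremes. Of its 21 tested probe sets, 6 were highest on wild-type 4 and 2 lowest on wild-type 6, beside 15.4% and 16.7% of all tested probe sets. Ciita, the transactivator of class II genes, was near the filter at 5.18, 5.28 and 5.27 in DNMTs-Tg hearts and 5.33, 5.43 and 5.32 in wild-type hearts (-0.12; limma, adjusted p = 0.533).

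Interferons are the main inducers of class I genes, and the lists of the interferon types had unlike patterns over the arrays. The interferon-gamma response list, 22 tested probe sets of 14 genes, had 0 called higher and 1 called lower. Of the 22, 11 were highest on wild-type 4, beside 15.4% of all tested probe sets. The array means of the list, relative to the wild-type mean, were -0.16, -0.09 and 0.21 in DNMTs-Tg hearts and -0.21, 0.53 and -0.33 in wild-type hearts. Their extremes were those of the class I members, and the part of interferon in the members' values was not tested. The 1 called lower was Ifngr2, a chain of the interferon-gamma receptor, at 9.66, 9.87 and 10.09 in DNMTs-Tg hearts and 10.62, 10.57 and 10.96 in wild-type hearts (-0.85 ± 0.16, SE; limma, adjusted p = 0.0317). The type I interferon list, 21 probe sets of 15 genes, had 3 called higher and 0 lower, where 1.77% of all tested probe sets were called higher and 2.36% lower. Its array means, relative to the wild-type mean, were 0.81, 0.41 and 0.64 in DNMTs-Tg hearts and -0.04, 0.11 and -0.07 in wild-type hearts. Those called were Usp18 (1.29; adjusted p = 0.0196), Ifit3 (1.81; adjusted p = 0.0290) and Ifit2 (1.13; adjusted p = 0.0411), all genes induced by type I interferon.

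Members and their neighbours on chromosome 17 were compared as well. The stretch from H2-K1 to H2-D1 holds 122 annotated genes, 68 of them with a tested probe set. Of the 81 tested probe sets of non-members there, 1 was called higher, of the chloride channel gene Clic1 (0.63; limma, adjusted p = 0.0438), and 1 lower, of Hsd17b8, listed on the platform as H2-Ke6 (-0.82; adjusted p = 0.0451). That is 2.47% called, beside 4.13% of all tested probe sets. Highest on wild-type 4 and lowest on wild-type 6 was 1 of the 81, or 1.23%, where 12 of the 21 tested member probe sets of the stretch did so. The stretch holds genes of many functions, so these groups are unlike.

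Markers of cells that can carry class I or class II were set beside the members. The array averages of these lists are given relative to the wild-type mean, except where levels are named. Macrophage and monocyte markers (28 tested probe sets of 18 genes) averaged 1.21, 0.01 and 0.11 in DNMTs-Tg hearts and 0.01, -0.09 and 0.08 in wild-type hearts, so DNMTs-Tg 1, on which Cd74 was highest, stood out. Of these probe sets 1 was called higher, of the chemokine receptor gene Ccr2 (1.27), whose brightest probe set missed the threshold (1.44; limma, adjusted p = 0.0535). The called Ccr2 probe set read 5.51, 5.25 and 5.70 in DNMTs-Tg hearts and 4.19, 4.11 and 4.36 in wild-type hearts. Only the 3 DNMTs-Tg arrays lay above the filter, so it was tested only through the group where it was high, and its call carries no weight here. Neutrophil markers (6 probe sets of 6 genes) averaged 0.66 to 0.80 in DNMTs-Tg hearts and -0.24 to 0.29 in wild-type hearts. The 2 called higher were S100a8 (1.86) and S100a9 (2.14), while the median difference of the list was 0.28. Dendritic cell markers (8 probe sets of 6 genes) averaged 0.05 to 0.11 in DNMTs-Tg hearts and -0.07 to 0.04 in wild-type hearts, and B cell markers (8 of 5 genes) -0.08 to 0.03 in DNMTs-Tg hearts and -0.07 to 0.09 in wild-type hearts, with none called. T and NK cell markers (9 of 6 genes) averaged -0.18 to 0.09 in DNMTs-Tg hearts and -0.08 to 0.04 in wild-type hearts, again with none called. Wild-type 4, the top wild-type array for the members, stood at -0.09 for macrophage, -0.07 for dendritic, -0.03 for B cell and 0.04 for T and NK cell markers. Fibroblast markers averaged 1.11 on DNMTs-Tg 1 and -0.13 to 0.26 on the other arrays, with none of 19 probe sets called. Endothelial markers (15 of 10 genes) had 1 called higher, of Vwf, the von Willebrand factor gene, at 10.20, 9.75 and 9.85 in DNMTs-Tg hearts and 8.80, 8.72 and 8.10 in wild-type hearts (1.39; limma, adjusted p = 0.0196), and averaged -0.01 to 0.21 in DNMTs-Tg hearts and -0.05 to 0.03 in wild-type hearts. In the lists without a call the smallest p, by the brightest probe sets, belonged to Siglech (-0.33; adjusted p = 0.117), Fcer2a (-0.23; adjusted p = 0.287), Cd8a (-0.19; adjusted p = 0.335), Col1a2 (1.01; adjusted p = 0.136) and Actc1 (-0.18; adjusted p = 0.173), of dendritic, B, T and NK, fibroblast and cardiomyocyte markers in that order. The part of these cells in the members' values was not tested. Cardiomyocyte markers, which identify the tissue, had mean levels of 12.21, 12.49 and 12.59 in DNMTs-Tg hearts and 12.53, 12.55 and 12.52 in wild-type hearts. Relative to the wild-type mean, the DNMTs-Tg arrays stood at -0.32, -0.04 and 0.05 for them.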

How the data were processed

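Each array value is the signal of 1 probe set in 1 heart. The authors deposited 1 table of values, read as log2 signals from their span of 2.06 to 14.74 and array medians of 5.28 to 5.33. How background was corrected and arrays were normalized is not given in the sources used here. Per the labels' protocols, RNA was amplified and labelled with biotin by in vitro transcription. No detection calls were used, and the number of arrays limits the precision.

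Symbols came from the platform annotation (34958 probe sets with 1 symbol, 932 with several, 9211 with none), updated by gene identifier to GRCm38.p6 for 34754. After 64 control probe sets were left out, 27319 with at least 3 of 6 arrays above their own 40th percentile entered a 2-sided test without covariates in limma 3.58.1 (R 4.3.3; lmFit, eBayes with a trend). P-values were adjusted by Benjamini-Hochberg over all of them, with a threshold of 0.05. Exact permutation of 3 against 3 arrays was not used. The steps were tested on simulated data. Labels say 1 mouse per array, and group numbers were checked for pairing: deviations of same-numbered arrays correlated at -0.0479 and -0.0812, so they were not treated as pairs.

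The members, gene lists and settings were chosen with earlier results of these data known. Genes named are all members, the list genes past the threshold (at most 3 per list) or else that with the smallest p by its brightest probe set, and the 3 genes most like Psmb8 and Cd74. Motifs were searched with Python 3.11.15.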

Additional observations from a re-analysis of the deposited data

How the results depend on the processing

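The 2 Cd1d1 falls kept their direction in every setting run. Member probe sets called lower were 2 in the reported fit, 1 with the brightest probe set per gene or with a gene's probe sets averaged, where a gene counts once, and 0 with the label number as a replicate block, which left 2 calls in the whole table (Cd1d1 -1.35 and -1.31, adjusted p = 0.247 and 0.199). Only label numbers 1 and 6 occur in both groups, so DNMTs-Tg 5 and wild-type 4 add nothing to the block's differences. With an array left out the count of member probe sets called lower was 0 to 2: 0 without DNMTs-Tg 5 or wild-type 1. Over all probe sets the calls then ran from 167 to 2749. Member probe sets called higher were 0, and 1 (Tap1) with array weights; with an array left out they stayed at 0. List probe sets called higher were 7 in the reported fit, 45 with array weights, 0 with the block, 22 at a threshold of 0.1, and 1 (without wild-type 4) to 14 (without DNMTs-Tg 6) with an array left out; those called lower were 1, then 21, 0, 2 and 0 to 3, and 0 without DNMTs-Tg 1 and wild-type 4 together.

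Signs turned in 15 results, none of them called. The block's differences rest on replicates 1 and 6 of each group. With the block, H2-K1 1427746_x_at gave 0.34, H2-K1 1450534_x_at 0.09, Psmb8 0.05 and H2-Aa 1452431_s_at 0.32. Without DNMTs-Tg 1 and wild-type 4, a choice made after the data were seen, these gave 0.28, 0.22, 0.08 and 0.12, H2-D1 1425614_x_at 0.16 and Tap1 1448177_at 0.02. Array weights gave 0.08 for that H2-D1 probe set and -0.09 for H2-Aa 1435290_x_at. With single arrays left out the ranges were -0.23 to 0.43, -0.03 to 0.50, -0.32 to 0.31 and -0.22 to 0.08 for H2-K1, -0.01 to 0.53, -0.03 to 0.50 and -0.16 to 0.11 for H2-D1, -0.14 to 0.43 for B2m, -0.42 to 0.05 for Psmb8, -0.10 to 0.35, -0.03 to 0.34 and -0.17 to 0.25 for H2-Aa, and -0.10 to 0.32 and -0.10 to 0.35 for H2-Ab1. The cause was not tested.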

Other observations

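Other interferon-inducible genes, singled out after their values were seen, had wild-type 4 as the highest of the wild-type arrays. Gbp6, a guanylate-binding protein, read 10.16, 10.06 and 10.31 in DNMTs-Tg hearts and 9.12, 10.21 and 7.76 in wild-type hearts on 1447927_at, with a difference of 1.14 (limma, adjusted p = 0.237). Irgm2, an immunity-related GTPase, read 8.14, 8.15 and 8.42 in DNMTs-Tg hearts and 7.95, 9.80 and 8.22 in wild-type hearts. Wild-type 4 was the top array for Irgm2, and lay among the DNMTs-Tg values for Gbp6.

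Ctss, the protease that trims the invariant chain, was highest on DNMTs-Tg 1, with 12.18, 10.50 and 10.37 in DNMTs-Tg hearts and 9.63, 10.14 and 9.98 in wild-type hearts (1.10; limma, adjusted p = 0.191). In the neutrophil marker list, 2 of the 6 tested probe sets were called: S100a8 (1.86; limma, adjusted p = 0.0237) and S100a9 (2.14; adjusted p = 0.0354) were higher in DNMTs-Tg hearts. The median difference of that list was 0.28.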
